A study of Mus musculus with 7 samples.

Results

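RNA of neurons, glia and blood vessels was followed in 7 libraries of microglia sorted from mouse cortex. The genes are 31 markers chosen by symbol for the cells that surround microglia: 10 of neurons, 7 of oligodendrocytes, 8 of astrocytes, 4 of endothelial cells and 2 of oligodendrocyte precursors. Of the 31, 27 had a row among the 14594 rows of the deposited count table that name a gene, and 18 had enough counts to be tested between groups. The levels of Tubb3, Mog, Cldn11 and Pdgfra were not analysed here, while their promoters are among those counted below.

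Both sorted populations came from the same kind of mouse, C57BL/6 at 12 weeks, heterozygous at 3 loci: GFP in the Cx3Cr1 locus, IRES-Cre in Hoxb8, and a CAG-driven lox-stop-lox tdTomato in ROSA26. Hoxb8 microglia (n = 3 libraries) carried tdTomato and GFP, and non-Hoxb8 microglia (n = 4 libraries) carried GFP alone. The tdTomato colour is permanent once Cre has acted, so it marks descent from Hoxb8-expressing cells and not present Hoxb8 expression, and the Cx3Cr1 GFP allele marks other myeloid cells besides microglia. Cortex without meninges was digested with trypsin, cells were captured on anti-Cd11b beads and then sorted on the 2 colours. The study asked whether the microglia of these origins differ in their transcripts. Hoxb8 replicates 1, 2 and 3 are libraries 6, 14 and 22, and non-Hoxb8 replicates 1, 2, 3 and 4 are libraries 5, 13, 21 and 25. The labels name 4 animals for these 7 libraries and do not tie libraries to animals, so the libraries are not 7 independent samples and the p-values measure only the spread between them.

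Neurons, oligodendrocytes, astrocytes and endothelial cells are the main non-microglial cells of cortex. Neurons make the machinery of synaptic release and, in dendrites, calcium signalling and microtubule proteins, oligodendrocytes wrap axons in myelin, astrocytes take up glutamate and turn it into glutamine, and endothelial cells line the vessels with tight junctions. Microglia are macrophages, and their sort on Cd11b and the Cx3cr1 reporter selects none of these cells. Such markers are therefore used to read how much RNA of other brain cells a microglial library holds. In bulk RNA, fewer cells of a type and less RNA per cell cannot be told apart.

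Library totals lay between 5922972 and 7753577 counts, with 13058 to 13750 genes detected. Levels are given as CPM, which are counts scaled to a common library total after TMM normalisation, and 1 library's floor of 3 counts corresponds to between 0.382 and 0.515 CPM. The microglial identity of the sort was plain in all 7 libraries: 19 microglial genes summed to between 60128 and 66622 CPM in Hoxb8 libraries and between 52782 and 69021 CPM in non-Hoxb8 libraries. P2ry12, a purinergic receptor of resting microglia, stood at 3546 CPM per kilobase of exon. The 27 marker genes together took 0.131% to 0.175% of counts in Hoxb8 libraries and 0.116% to 0.202% in non-Hoxb8 libraries. Without Glul, which made up most of this, the shares were 0.0285% to 0.0674% in Hoxb8 libraries and 0.0289% to 0.0806% in non-Hoxb8 libraries.

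Promoters of 3 markers are shown, 1 each of neuron, astrocyte and oligodendrocyte, since they varied widely between the libraries: the highest library was 14.9 times the lowest for Map2, 20.3 times for Aldoc and 31.5 times for Mobp. The windows run from 250 bases before to 50 after the start (RefSeq, GRCm38.p6, plus strand of the chromosome), at chr1:66175079-66175378 for Map2, chr11:78322823-78323122 for Aldoc (the first of its 2 starts) and chr9:120149492-120149791 for Mobp. Capitals mark 2 motifs on either strand, the GC box CCGCCC and the SOX core CTTTGT.
Map2: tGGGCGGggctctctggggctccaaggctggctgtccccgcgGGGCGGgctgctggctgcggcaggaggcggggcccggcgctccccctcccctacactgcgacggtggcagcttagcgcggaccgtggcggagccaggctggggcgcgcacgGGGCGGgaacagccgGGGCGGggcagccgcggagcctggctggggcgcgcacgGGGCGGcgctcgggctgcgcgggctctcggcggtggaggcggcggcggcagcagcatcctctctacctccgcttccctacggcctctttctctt
Aldoc: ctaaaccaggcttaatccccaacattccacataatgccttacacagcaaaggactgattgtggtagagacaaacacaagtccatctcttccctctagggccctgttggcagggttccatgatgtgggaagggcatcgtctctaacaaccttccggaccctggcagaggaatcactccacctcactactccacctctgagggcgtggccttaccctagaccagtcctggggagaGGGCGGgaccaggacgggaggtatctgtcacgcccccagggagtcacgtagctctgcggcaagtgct
Mobp: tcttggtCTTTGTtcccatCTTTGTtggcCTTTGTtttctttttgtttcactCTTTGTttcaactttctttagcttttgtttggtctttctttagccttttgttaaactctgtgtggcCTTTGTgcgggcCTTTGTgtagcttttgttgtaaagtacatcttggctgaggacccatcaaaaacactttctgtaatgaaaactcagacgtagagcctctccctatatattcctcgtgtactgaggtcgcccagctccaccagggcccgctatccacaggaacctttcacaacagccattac
Map2 and Aldoc had 5 and 1 GC boxes, and Mobp had 0 GC boxes and 6 copies of the SOX core. Of the 22 members with a promoter in the RefSeq table, 13 had a GC box, 59.1% against 35.9% of all 27025 promoters, and 4 had the SOX core, 18.2% against 18.7%. The 6 oligodendrocyte members with a promoter had the SOX core in 3 cases (Mag, Mobp and Cnp). Map2 had 37 CpG in its window, Aldoc 8 and Mobp 5, with a median of 7 over all promoters. These are descriptions of letters in a window, and the motifs were chosen after the sequences were seen.

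Levels between genes are compared per kilobase of exon. Glul, glutamine synthetase, which many cell types express besides astrocytes, was far above the rest at 327 CPM per kilobase. Mbp, a protein of compact myelin, followed at 18.5, then Sparcl1, a secreted astrocyte protein (13.6), Cnp, an enzyme of non-compact myelin (13.1), and Camk2a, the calcium/calmodulin-dependent kinase subunit of excitatory neurons (13.03). Pecam1, the adhesion molecule of endothelial cells and of leukocytes, stood at 5.86, Snap25, a SNARE protein of synaptic release, at 4.98, and Aldoc, the brain aldolase of astrocytes, at 4.96. The remaining members were at or below 3.80 CPM per kilobase.

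**Figure D1:**
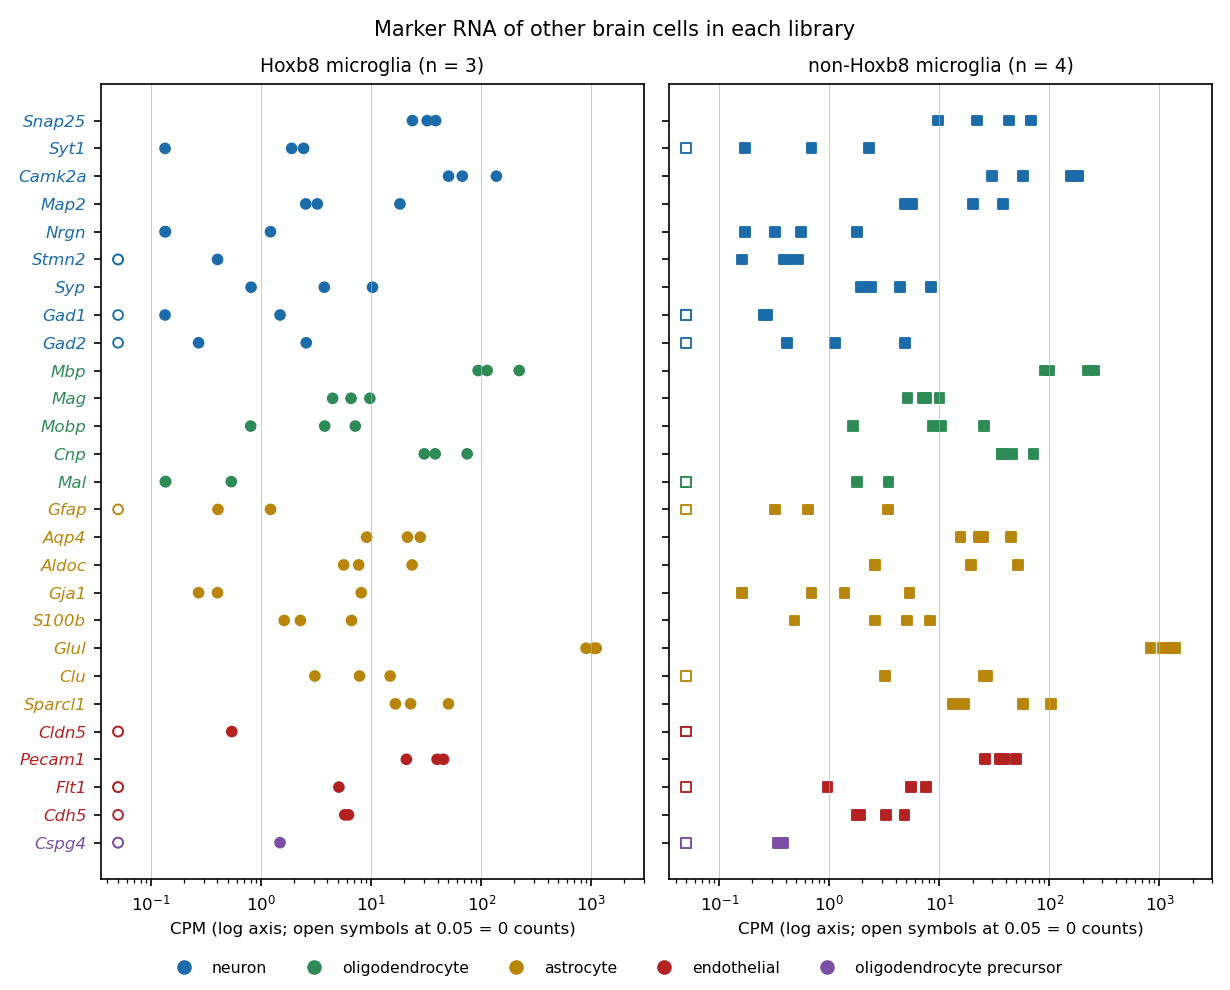
Level of each of the 27 markers in each library, in CPM on a log axis, for Hoxb8 libraries (circles, left) and non-Hoxb8 libraries (squares, right), with open symbols at the left edge for 0 counts. Glul lay between 829 and 1377 CPM, most others lay below 100 CPM, and the groups overlapped for all 18 tested members.

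Several markers that define a cell type were near 0. Cldn5, the tight junction claudin of brain endothelium, had 0, 4 and 0 counts in Hoxb8 replicates 1 to 3 and 0 counts in all 4 non-Hoxb8 libraries, which together allow up to 0.110 CPM. Gad1 and Gad2, the enzymes that make GABA, had 12 and 21 counts over the Hoxb8 libraries and 4 and 48 over the non-Hoxb8 libraries. Stmn2, a microtubule regulator of growing axons, had 3 counts over the Hoxb8 libraries and 10 over the non-Hoxb8 libraries. Gfap, the intermediate filament of astrocytes, had 12 counts over the Hoxb8 libraries and 27 over the non-Hoxb8 libraries, of which 20 were in replicate 4. Cspg4, the NG2 proteoglycan of oligodendrocyte precursors and pericytes, had 11 counts over the Hoxb8 libraries, all in replicate 3, and 5 over the non-Hoxb8 libraries. Nrgn, a calmodulin-binding protein of dendritic spines, reached at most 14 counts in any library and Mal, a membrane protein of myelin, at most 27. These 8 genes and Gja1, the connexin of astrocyte gap junctions, did not pass the filter on low counts.

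Neuron RNA summed to 81.1, 210 and 108 CPM in Hoxb8 replicates 1, 2 and 3, against 92.3, 306, 47.9 and 222 CPM in non-Hoxb8 replicates 1, 2, 3 and 4. The highest library was 6.38 times the lowest, both of them non-Hoxb8, so the spread within that group covered the whole range. Camk2a, whose mRNA neurons carry into dendrites, gave 63.8% of the sum. It stood at 50.4, 137 and 67.1 CPM in Hoxb8 libraries, against 58.0, 183, 29.8 and 155 CPM in non-Hoxb8 libraries. Replicate 2 of either group and non-Hoxb8 replicate 4 held the 3 highest values, and the groups overlapped (log2 fold change -0.33 ± 0.73, SE).

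Snap25 stood at 23.6, 38.5 and 32.2 CPM in Hoxb8 libraries, against 21.97, 67.5, 9.78 and 42.9 CPM in non-Hoxb8 libraries (log2 fold change -0.18 ± 0.51, SE). Map2, a microtubule protein of dendrites, stood at 2.54, 18.2 and 3.23 CPM in Hoxb8 libraries, against 5.63, 37.7, 4.81 and 20.1 CPM in non-Hoxb8 libraries (-1.09 ± 0.88). For both genes the same 3 libraries were highest as for Camk2a, with non-Hoxb8 replicate 2 at the top. Syp, a membrane protein of synaptic vesicles, was highest in Hoxb8 replicate 2 (10.3 CPM) and lowest in Hoxb8 replicate 3 (0.809 CPM), with non-Hoxb8 libraries between 1.92 and 8.41 CPM, and 16.8% of its exon bases overlap an antisense transcript (Gm14703) from which unstranded reads cannot be told apart. Syt1, the calcium sensor of vesicle release, lay between 0.134 and 2.43 CPM in Hoxb8 libraries and between 0 and 2.29 CPM in non-Hoxb8 libraries. Syp and Syt1 had log2 fold changes of 0.20 ± 0.86 and 0.87 ± 1.33 (SE).

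Oligodendrocyte RNA summed to 139, 307 and 157 CPM in Hoxb8 replicates 1 to 3, against 175, 292, 152 and 326 CPM in non-Hoxb8 replicates 1 to 4. Mbp made up 71.0% of it, at 93.5, 221 and 113 CPM in Hoxb8 libraries, against 90.2, 226, 99.6 and 256 CPM in non-Hoxb8 libraries. The 3 highest values of Mbp were again those of Hoxb8 replicate 2 and non-Hoxb8 replicates 2 and 4 (log2 fold change -0.24 ± 0.47, SE). Mobp, a basic protein of compact myelin, stood at 0.802, 7.15 and 3.77 CPM in Hoxb8 libraries, against 1.65, 8.79, 10.4 and 25.2 CPM in non-Hoxb8 libraries. Its log2 fold change of -1.55 ± 0.84 (SE) was the farthest from 0 among the tested members, and its unadjusted p of 0.0839 in edgeR the smallest.

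Other myelin genes did not follow Mbp. Cnp stood at 38.1, 74.4 and 30.3 CPM in Hoxb8 libraries, against 71.5, 46.1, 36.9 and 37.1 CPM in non-Hoxb8 libraries, with the highest values in Hoxb8 replicate 2 and non-Hoxb8 replicate 1. Mag, an adhesion molecule of the inner myelin layer, lay between 4.45 and 9.70 CPM in Hoxb8 libraries and between 5.13 and 10.02 CPM in non-Hoxb8 libraries, and was lowest in Hoxb8 replicate 2. Of the exon bases of Cnp, 4.2% overlap Dnajc7 on the other strand.

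Astrocyte RNA without Glul summed to 37.0, 126 and 68.5 CPM in Hoxb8 replicates 1 to 3, against 47.4, 128, 42.7 and 239.8 CPM in non-Hoxb8 replicates 1 to 4, a spread of 6.48 times from lowest to highest. Sparcl1 stood at 16.6, 50.3 and 22.8 CPM in Hoxb8 libraries, against 16.6, 57.2, 13.3 and 103 CPM in non-Hoxb8 libraries (log2 fold change -0.67 ± 0.81, SE). Aldoc stood at 5.61, 23.5 and 7.68 CPM in Hoxb8 libraries, against 2.61, 19.2, 2.57 and 52.04 CPM in non-Hoxb8 libraries (-0.64 ± 1.16). Clu, the secreted chaperone clusterin, stood at 3.07, 14.8 and 7.82 CPM in Hoxb8 libraries, against 0, 25.3, 3.21 and 26.96 CPM in non-Hoxb8 libraries (-0.69 ± 1.46). Hoxb8 replicate 2 and non-Hoxb8 replicates 2 and 4 were the 3 highest libraries for all 3 genes, and the groups overlapped for each.

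S100b, a calcium-binding protein of astrocytes, had the same 3 libraries on top, at 2.27, 6.61 and 1.62 CPM in Hoxb8 libraries, against 2.61, 5.09, 0.481 and 8.24 CPM in non-Hoxb8 libraries. Gja1 was at 3, 60 and 2 counts in Hoxb8 libraries, against 5, 42, 1 and 8 counts in non-Hoxb8 libraries, high in replicate 2 of either group and at or below 8 counts elsewhere. Aqp4, the water channel of astrocyte endfeet, did not share this order, at 9.09, 21.3 and 27.9 CPM in Hoxb8 libraries, against 24.9, 15.5, 22.6 and 44.5 CPM in non-Hoxb8 libraries. Glul was nearly even, at 1051, 1108 and 894 CPM in Hoxb8 libraries, against 1377, 1084, 829 and 1266 CPM in non-Hoxb8 libraries. Its standard deviation over the 7 libraries was 0.26 on the log2 scale, against 1.60 for Aldoc and 1.11 for Sparcl1.

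Endothelial RNA summed to 31.7, 52.1 and 39.6 CPM in Hoxb8 replicates 1 to 3, against 51.5, 42.7, 31.6 and 49.5 CPM in non-Hoxb8 replicates 1 to 4, and 85.5% of it was Pecam1. Pecam1 itself lay between 20.8 and 45.4 CPM in Hoxb8 libraries and between 25.8 and 49.6 CPM in non-Hoxb8 libraries. Flt1, a VEGF receptor, had 38, 0 and 0 counts in Hoxb8 libraries, against 0, 43, 6 and 44 counts in non-Hoxb8 libraries. Cdh5, the cadherin of endothelial junctions, had 43, 46 and 0 counts in Hoxb8 libraries, against 14, 14, 30 and 19 counts in non-Hoxb8 libraries. Flt1 and Cdh5 were both present in Hoxb8 replicate 1 and in non-Hoxb8 replicates 2, 3 and 4, Cdh5 without Flt1 in Hoxb8 replicate 2 and non-Hoxb8 replicate 1, and neither in Hoxb8 replicate 3. The 3 endothelial markers thus followed neither each other nor the order of the neuron and astrocyte genes.

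**Figure D2:**
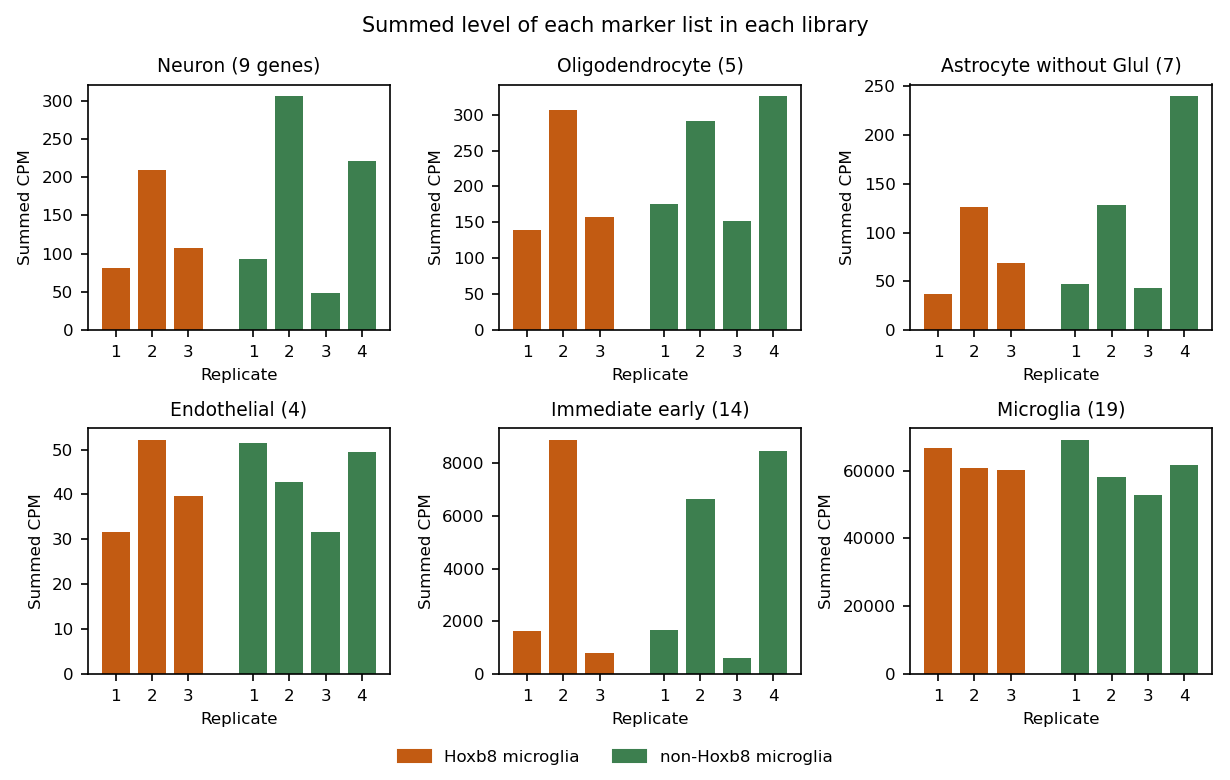
Summed CPM of 4 marker lists (astrocytes without Glul), of 14 immediate early and heat shock genes and of 19 microglial genes, in each Hoxb8 library (orange) and each non-Hoxb8 library (green). Neuron RNA ran from 47.9 to 306 CPM and immediate early RNA from 613 to 8883 CPM with the same 3 libraries highest, whereas the microglial sum stayed between 52782 and 69021 CPM.

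Neuron, astrocyte and some myelin RNA moved together across libraries and across the 2 groups. For 8 of the 18 tested members the 3 highest libraries were Hoxb8 replicate 2 and non-Hoxb8 replicates 2 and 4, which holds for 560 of all 11874 genes tested (4.72%). The 8 were Snap25, Camk2a, Map2, Mbp, Aldoc, S100b, Clu and Sparcl1. The pattern was noticed in these values and carries no test. Non-Hoxb8 replicate 3 was the lowest library for 7 of the 18 (38.9%) and the highest for 0, where 12.3% of all genes tested were lowest in it. Non-Hoxb8 replicate 4 was highest for 8 of the 18 (44.4%), 5 of them among the 6 tested astrocyte genes, and for 17.4% of all genes tested. The tested members had a median standard deviation of 1.13 in log2 CPM over the 7 libraries, against 0.48 over all genes tested, and this includes the counting error of low genes.

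Other genes of the same cell types gave part of the same order. Of 16 other tested astrocyte genes, 6 had those 3 libraries on top (Slc1a2, Atp1b2, Ndrg2, Slc4a4, Mlc1 and Ttyh1), as had 4 of 11 other neuron genes (Rbfox3, Nefl, Slc17a7 and Eno2). Slc1a2, the main glutamate transporter of astrocytes, stood at 87.9, 377 and 260 CPM in Hoxb8 libraries, against 109, 388, 145 and 775 CPM in non-Hoxb8 libraries. These list genes were named for their order, after their values were seen. Of 5 other tested endothelial genes, 4 mural and fibroblast genes and 19 microglial genes, 0 had this order.

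The genes of immediate early response and heat shock, which brain cells switch on during stimulation and during dissociation, had the same 3 libraries highest. This held for 13 of 14 of them, all but Jund. They summed to 1634, 8883 and 779 CPM in Hoxb8 replicates 1 to 3, against 1680, 6650, 613 and 8455 CPM in non-Hoxb8 replicates 1 to 4. Fos stood at 66.8, 353 and 32.6 CPM in Hoxb8 libraries, against 78.6, 317, 19.2 and 642 CPM in non-Hoxb8 libraries. Their part in the level of the neuron and glial markers was not tested.

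**Figure D3:**
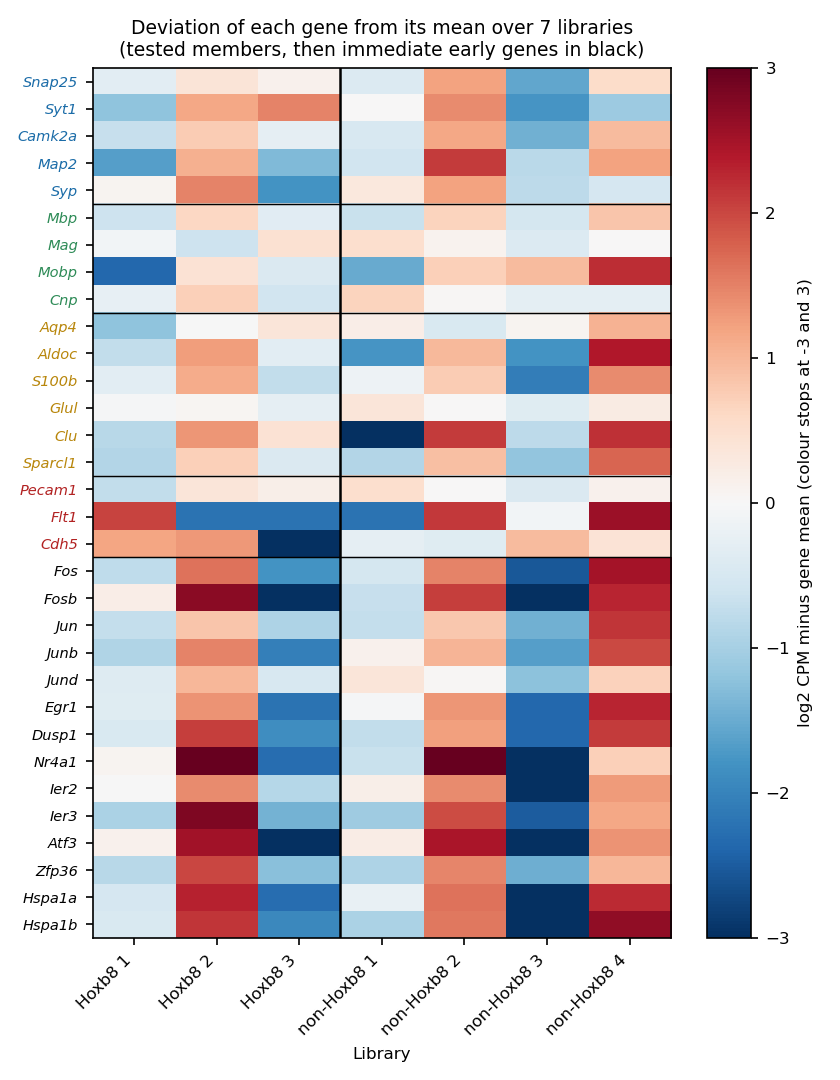
Log2 CPM of each tested marker and of 14 immediate early and heat shock genes in each library, as the deviation from the gene's own mean over the 7 libraries (red higher, blue lower), with Hoxb8 libraries left of the line. Hoxb8 replicate 2 and non-Hoxb8 replicates 2 and 4 are red and non-Hoxb8 replicate 3 is blue for most neuron, astrocyte and immediate early genes, while Glul, Mag and Pecam1 stay pale.

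Between the sorted groups, 0 of the 18 tested members passed edgeR's quasi-likelihood test (Benjamini-Hochberg over 11874 genes, each adjusted p at least 0.9996), and 0 had an unadjusted p below 0.05. With single libraries left out, 0 members passed after adjustment in each edgeR fit. An unadjusted p below 0.05 was found for 2 of 18 members without Hoxb8 replicate 2. It was found for 1 of 18 without Hoxb8 replicate 1, for 1 of 18 without non-Hoxb8 replicate 1, and for 0 without any of the other 4. The share of all genes below that threshold in these reduced fits is not given here, so these counts cannot be set against a background. Over all genes the test on all 7 libraries gave 4 higher in Hoxb8 libraries (0.0337%) and 0 lower (0%), and without adjustment 1.95% were higher and 1.57% lower at that threshold. DESeq2 called 0 members, with 0.168% of all genes higher and 0.0337% lower, and limma-voom called 0 members and 0% of all genes. The groups overlapped for all 18, whereas 4.56% of all genes tested did not overlap.

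The log2 fold change was below 0 for 15 of the 18 tested members (83.3%) and for 50.0% of all genes tested, with medians of -0.23 for the members and 0.00 for all genes. Scaling by RLE or by library totals alone also gave 15 of 18. By cell type the medians were -0.18 for 5 neuron genes, -0.17 for 4 oligodendrocyte genes, -0.55 for 6 astrocyte genes and -0.08 for 3 endothelial genes. The count moved with single libraries. Without non-Hoxb8 replicate 4 it was 10 of 17 with a median of -0.08, and without Hoxb8 replicate 2 it was 16 of 18 with a median of -0.62. Hoxb8 replicate 2 and non-Hoxb8 replicates 2 and 4 were the 3 highest libraries for 8 of the 18 tested members. Without these 3 libraries the count was 8 of 16 with a median of -0.05. That comparison of 2 libraries against 2 was chosen after the member values were seen, so it is no independent check of the direction.

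The labels do not say whether libraries with adjacent numbers (6 and 5, 14 and 13, 22 and 21) share an animal. With them as pairs in the fit, 0 members passed, while over all genes 43 were higher (0.362%) and 0 lower (0%). Unadjusted, 0 of 18 members had a p below 0.05 in that fit, with 3.01% of all genes higher and 2% lower. The log2 fold change was then below 0 for 9 of 18 members, with a median of -0.01. The medians with the pairs were 0.16 for neuron, -0.16 for oligodendrocyte, 0.36 for astrocyte and -0.08 for endothelial genes. The direction turned for Snap25 (0.29 ± 0.39, SE), Camk2a (0.16 ± 0.25), Mbp (0.07 ± 0.18), Aldoc (0.94 ± 0.47), S100b (0.54 ± 0.94), Clu (1.12 ± 0.73), Sparcl1 (0.18 ± 0.31) and Syp (-0.33 ± 0.83). Library 25, non-Hoxb8 replicate 4, has no neighbour and adds nothing to the difference in that fit.

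Within the pairs the members did not move alike. In libraries 22 and 21 the Hoxb8 library was above its non-Hoxb8 neighbour for 6 of 6 astrocyte genes and 3 of 5 neuron genes, at median log2 ratios of 0.99 and 1.16. In libraries 14 and 13, the pair with both libraries high, these medians were 0.16 for astrocyte and -0.41 for neuron genes, and in libraries 6 and 5, both low, -0.09 and -0.22. Camk2a stood at 137 CPM in library 14 and 183 CPM in library 13. In libraries 6 and 5 it stood at 50.4 and 58.0 CPM, so it differed more between those pairs than within either. Libraries 22 and 21 were less alike, at 67.1 and 29.8 CPM (log2 ratio 1.17).

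**Figure D4:**
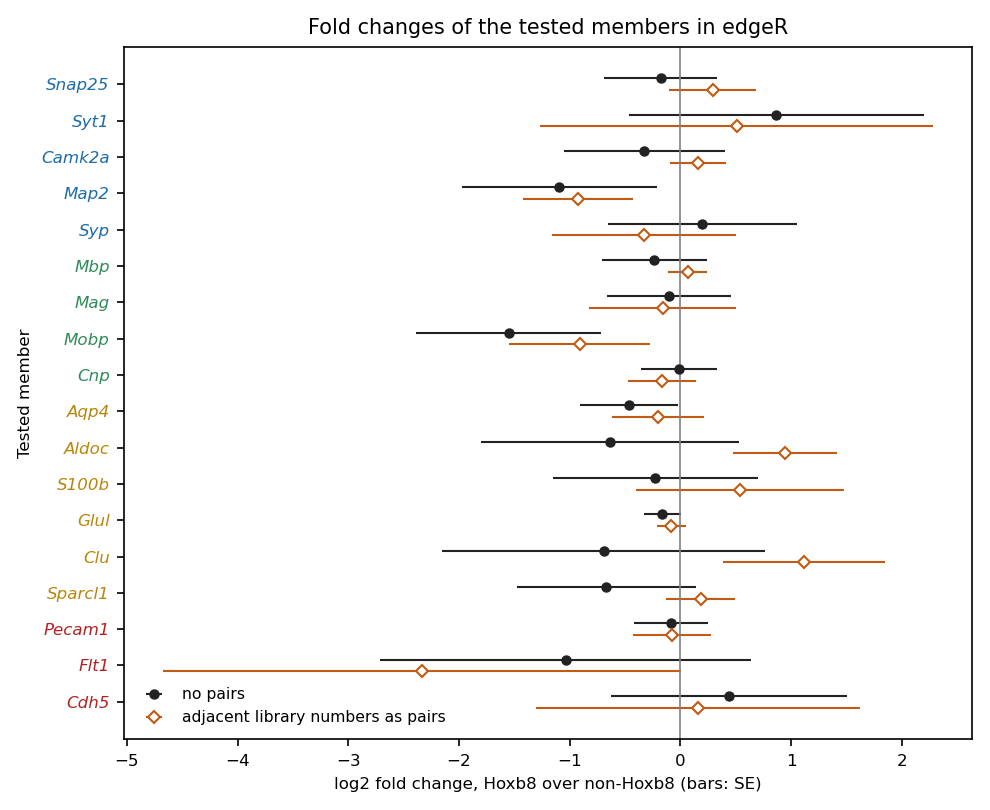
Log2 fold change of Hoxb8 over non-Hoxb8 for the 18 tested members in edgeR with SE bars, without pairs (filled circles) and with adjacent library numbers as pairs (open diamonds). Of the 18, 15 lie below 0 without the pairs and 9 with them, and 0 passed the test in either fit.

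Other lists of the same cells gave 0 calls in either direction and in either fit. The medians without the pairs were -0.32 for 11 other neuron genes, -0.30 for 9 oligodendrocyte, -0.23 for 16 astrocyte, -0.03 for 5 endothelial and -0.31 for 4 mural and fibroblast genes, with 0.04, -0.26, 0.21, -0.07 and 0.41 with the pairs. Among the other genes highest per kilobase in their lists were Trf, transferrin, which is not particular to oligodendrocytes (186 CPM per kilobase), and Qdpr (13.4). Bsg (65.2), Pltp (28.6) and Slc2a1 (15.9) led the endothelial list. Of the 13 genes of that list with a row, only 5 had enough counts to be tested, so these leading genes do not stand for the whole list. Mt1 (48.5), Slc1a3 (26.3) and Cpe (25.7) led the astrocyte list, and Vamp2 (29.0) led the neuron list, which also held Syn1 (3.29). Slc1a3, a glutamate transporter of astrocytes, lay between 177 and 224 CPM in Hoxb8 libraries and between 220.3 and 268 CPM in non-Hoxb8 libraries. Acta2, Tagln and Pdgfrb, of mural cells, averaged between 5.11 and 7.91 CPM in Hoxb8 libraries and between 4.83 and 10.3 CPM in non-Hoxb8 libraries. Vcan, of oligodendrocyte precursors among other cells, averaged 1.83 ± 1.61 CPM in Hoxb8 libraries (SD, n = 3) and 3.38 ± 2.42 CPM in non-Hoxb8 libraries (SD, n = 4).

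Genes of border-associated macrophages, which sit at vessels and meninges, passed the test as higher in Hoxb8 libraries for 7 of 10 with the pairs. Without the pairs 0 of 10 passed. Over all genes tested, 0.362% were called higher with the pairs and 0.0337% without them. This list was chosen with earlier results of these data known, and no label gives the pairs, so the count is a description only. Mrc1, a mannose receptor, averaged 242 ± 172 CPM in Hoxb8 libraries (SD, n = 3) and 61.4 ± 36.9 CPM in non-Hoxb8 libraries (SD, n = 4). The list summed to 430, 844 and 216 CPM in Hoxb8 replicates 1 to 3, against 60.6, 132, 34.0 and 204 CPM in non-Hoxb8 replicates 1 to 4. Within each group it was highest in the libraries with the most immediate early RNA. Its part in the level of the vessel markers was not tested.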

How the data were processed

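RNA was measured in 7 libraries of sorted cortical microglia. Per the labels' protocols, the authors used a Clontech low-input kit and unstranded single-end reads, mapped with STAR 2.4.1c to GRCm38 with GENCODE M5. FeatureCounts, Subread and DESeq2 are further tools in the submitters' processing notes. The authors deposited 1 table of unnormalised whole counts by gene symbol. How its rows were filtered is not given. Of 14616 rows, 22 held spreadsheet dates for names and were left out (median 0.133% of counts).

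Counts were tested in R 4.3.3 with edgeR 4.0.16 (TMM, filterByExpr, robust glmQLFit and glmQLFTest, Benjamini-Hochberg, threshold 0.05), which left 11874 genes. Standard errors were taken as log2 fold change over the root of F. DESeq2 1.42.0 and limma 3.58.1 (voom) were alternatives. PCR reads carry no molecular identifiers, so floors cover counting error only. Exon lengths are from GENCODE M21 (GRCm38).

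For the 3 pairs of libraries with adjacent numbers, deviations from group means had correlations over genes of 0.18, 0.28 and 0.19. Each was over 0.1, so the pairs were kept for the alternative fit. Such correlations cannot show that 2 libraries share an animal. The pairs come from library numbers, not from a label. The members and lists were chosen with earlier results of these data known. All members were named, as were genes among the 3 tested ones highest per kilobase in each other list of the same cells. Some results of those lists are not reported here.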

Additional observations from a re-analysis of the deposited data

Results flagged for a closer look

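Among 33 measures searched in the 4 non-Hoxb8 libraries for 1 library far from the other 3, 1 was found, where 1.65 are expected by chance. The summed level of 3 oligodendrocyte precursor genes outside the members (Gpr17, Vcan and Sox6) was 0.172 CPM in replicate 4, against 4.26, 7.77 and 5.61 CPM in replicates 1, 2 and 3, with a gap over range of 0.842 on the log2 scale. The 0.172 CPM was all Sox6 and lay under that library's floor of 0.515 CPM, so it cannot be told from 0. The size of the gap on the log2 scale rests on this value. Hoxb8 replicates 1 to 3 held 4.14, 2.56 and 0.539 CPM of the same genes.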

How the results depend on the processing

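0 of the 18 tested members passed under any alternative run. The count of genes called, 4, became 24 with DESeq2, 0 with limma-voom and 43 with the replicate block of adjacent library numbers. It was 8 without 3 libraries (Hoxb8 replicate 2 and non-Hoxb8 replicates 2 and 4), an alternative chosen after seeing the member values. With single libraries left out the count ran from 0 to 6. It was 0 without non-Hoxb8 replicate 1 and 2 without Hoxb8 replicate 2. The summed astrocyte level had a log2 ratio of group means of -0.20 with Glul and -0.57 without it. With single libraries left out, this ratio ran from -0.33 to -0.10, and the medians of log2 fold changes ran from -0.86 to 0.20 for neuron, -0.70 to -0.070 for oligodendrocyte, -1.17 to -0.04 for astrocyte and -0.31 to 0.21 for endothelial members.

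Directions of single members turned, none of them called. With the replicate block the values were 0.29 for Snap25, 0.16 for Camk2a, -0.33 for Syp, 0.067 for Mbp, 0.94 for Aldoc, 0.54 for S100b, 1.12 for Clu and 0.18 for Sparcl1. With limma-voom they were 0.095 for Snap25, -0.27 for Syp, 0.18 for Aldoc, 0.045 for S100b, 1.11 for Clu and -0.99 for Cdh5. Without the 3 libraries they were 0.80 for Snap25, 0.41 for Camk2a, -0.49 for Syp, 0.11 for Mbp, 0.090 for Mag, 1.35 for Aldoc, 0.31 for S100b, 1.76 for Clu, 0.38 for Sparcl1 and -0.24 for Cdh5. With single libraries left out the ranges crossed 0 for Snap25 (-0.49 to 0.34), Camk2a (-0.86 to 0.069), Syp (-0.91 to 0.76), Mbp (-0.70 to 0.039), Mag (-0.43 to 0.13), Cnp (-0.49 to 0.25), Aldoc (-1.52 to 0.58), S100b (-1.07 to 0.35), Sparcl1 (-1.27 to 0.038), Pecam1 (-0.31 to 0.18) and Cdh5 (-0.031 to 1.02). The cause was not tested. The replicate block changed no call among the members. A level under 3 counts in a library cannot be told from 0 at this depth.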

Other observations

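Ttr, transthyretin, the main secreted protein of choroid plexus, stood at 16.6 CPM in Hoxb8 replicate 1 and 1.48 and 0 CPM in Hoxb8 replicates 2 and 3, against 26.6 CPM in non-Hoxb8 replicate 1 and 1.40, 1.76 and 0.172 CPM in replicates 2 to 4. Its 2 high libraries, 6 and 5, have adjacent numbers and were low in neuron RNA and in astrocyte RNA without Glul. With Glul, library 5 had the second highest astrocyte sum, at 1424 CPM. Hbb-bs, a beta globin of red blood cells, stood at 1.60, 1.62 and 18.7 CPM in Hoxb8 replicates 1 to 3, against 4.12, 2.04, 1.60 and 0.859 CPM in non-Hoxb8 replicates 1 to 4. Both are given as values with no test.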
